A study of Drosophila melanogaster with 7 samples.

Results

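Dsk2 was found at 4748 regions of the Drosophila melanogaster genome in S2 cells, a cultured line derived from embryos. These regions are all the intervals of the list called from the Dsk2 immunoprecipitation, out of 29798 intervals in the lists of 5 proteins. The assay was ChIP-Seq, in which an antibody pulls down a protein with the chromatin it sits on and the recovered DNA is sequenced. The antibodies were polyclonal, raised in rabbit for Dsk2, HP1c, WOC and ROW and in guinea pig for Z4. Each protein had 1 library from S2 cells with no treatment named in the labels, and 2 further libraries were inputs, chromatin that was not immunoprecipitated. Dsk2 and HP1c were called against 1 of these inputs and WOC, ROW and Z4 against the other. Genome positions are in the dm3 build.

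Dsk2 proteins, also called ubiquilins, carry a ubiquitin-like domain and a ubiquitin-associated domain, and are best known as shuttle factors that bring ubiquitylated proteins to the proteasome. HP1c is a member of the heterochromatin protein 1 family that is found in euchromatin, where it works with the zinc-finger proteins WOC (without children) and ROW (relative of woc). Z4 is a zinc-finger protein of the interbands of polytene chromosomes, which are open and rich in gene starts. The study asked, by its title, how Dsk2 bears on the binding of HP1c at transcription start sites.

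The lists hold a chromosome, a start and an end for each region, and no height, score or read number. The depth of the libraries is therefore unknown, and width is the only measure of a region. With 1 library per protein there was no replicate, so no test between proteins was made. Shares carry exact (Clopper-Pearson) 95% intervals. These cover counting error alone and treat neighbouring regions as independent. Regions were not assigned to genes.

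Most Dsk2 regions were narrow, and a small number of wide ones held much of the covered sequence. The median width was 216 bp, the lower and upper quartiles were 84 and 392 bp, and the range was 1 to 4229 bp. Regions under 50 bp numbered 874 (18.4%, 17.3 to 19.5%) and took 1.56% of the covered bases. The class of 50 to under 200 bp held 1352 regions (28.5%) and 12.8% of the bases. The largest class was 200 to under 500 bp, with 1817 regions (38.3%) and 44.8% of the bases. There were 607 regions of 500 to under 1000 bp (12.8%, with 30.4% of the bases) and 98 of 1000 bp or more (2.06%, 1.68 to 2.51%, with 10.4% of the bases). The 475 widest regions, 10% of the list, covered 31.5% of its 1.32 Mb. In the same classes the WOC list was similar, with 16.8% under 50 bp and 1.35% of 1000 bp or more. HP1c had 29.0% and 0.701%, Z4 had 15.6% and 7.02%, and ROW had 21.9% and 13.2%.

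**Figure D1:**
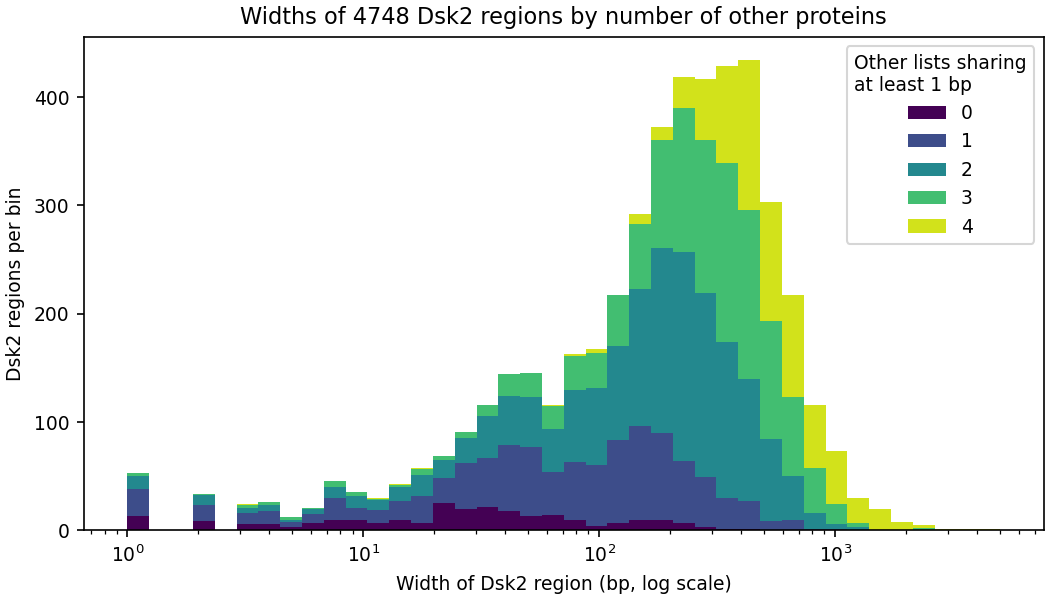
Number of Dsk2 regions by width in bp on a log scale, with bars split by how many of the 4 other lists share at least 1 bp with the region. Regions with no other protein lie mostly below 50 bp (185 of 253), and those with all 4 lie mostly above 200 bp.

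The other 4 proteins were found at very different shares of the Dsk2 regions. WOC shared at least 1 bp with 4131 of the 4748 (87.0%, 86.0 to 87.9%), Z4 with 3086 (65.0%, 63.6 to 66.4%), ROW with 1886 (39.7%, 38.3 to 41.1%) and HP1c with 1575 (33.2%, 31.8 to 34.5%). For comparison, the WOC list covered 1.21% of the bases of arms 2L, 2R, 3L, 3R, X and 4, Z4 2.67%, ROW 3.64% and HP1c 0.387%. Covered bases are a measure for single points and not for whole regions. The midpoint of the Dsk2 region lay in WOC for 80.3%, Z4 for 55.9%, ROW for 26.2% and HP1c for 17.9%. In the other direction, by at least 1 shared bp, Dsk2 was found at 70.5% of WOC, 62.0% of HP1c, 40.6% of Z4 and 19.5% of ROW regions. In this direction the share depended on the width of the other protein's region, more for WOC than for HP1c. Dsk2 was found at 13.95% (11.8 to 16.3%) of WOC regions under 50 bp, 61.4% of those of 50 to under 200 bp and 93.6% of those of 200 to under 500 bp, whereas HP1c regions of these classes had it at 59.8% (56.3 to 63.2%), 52.8% and 73.2%. All 79 WOC and all 19 HP1c regions of 1000 bp or more had Dsk2, against 77.2% of 526 Z4 and 50.4% of 1185 ROW regions of that width. HP1c shares its input with Dsk2 and the other 3 proteins do not, so in this ranking the input and the protein cannot be told apart.

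All 4 proteins were more frequent at wider Dsk2 regions, and HP1c had the steepest rise. HP1c was found at 7.89% of Dsk2 regions under 50 bp (6.19 to 9.89%), 14.9% of those of 50 to under 200 bp, 42.8% of those of 200 to under 500 bp and 71.7% of those of 500 to under 1000 bp. It reached 94.9% (93 of 98, 88.5 to 98.3%) at 1000 bp or more. WOC was found at 53.2% of the narrowest class (49.8 to 56.6%) and 87.4% of the next. It was present at 97.9% of the 200 to under 500 bp class and at all 607 and all 98 regions of the last 2 classes. Z4 rose from 43.0% (39.7 to 46.4%) through 55.2%, 75.01% and 84.0% to 92.9% (85.8 to 97.1%), and ROW from 22.4% (19.7 to 25.3%) through 27.9%, 46.2% and 63.4% to 90.8% (83.3 to 95.7%). From 50 bp to under 500 bp the order was WOC, Z4, ROW and HP1c, while at 500 to under 1000 bp HP1c (67.9 to 75.2%) lay above ROW (59.5 to 67.3%).

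**Figure D2:**
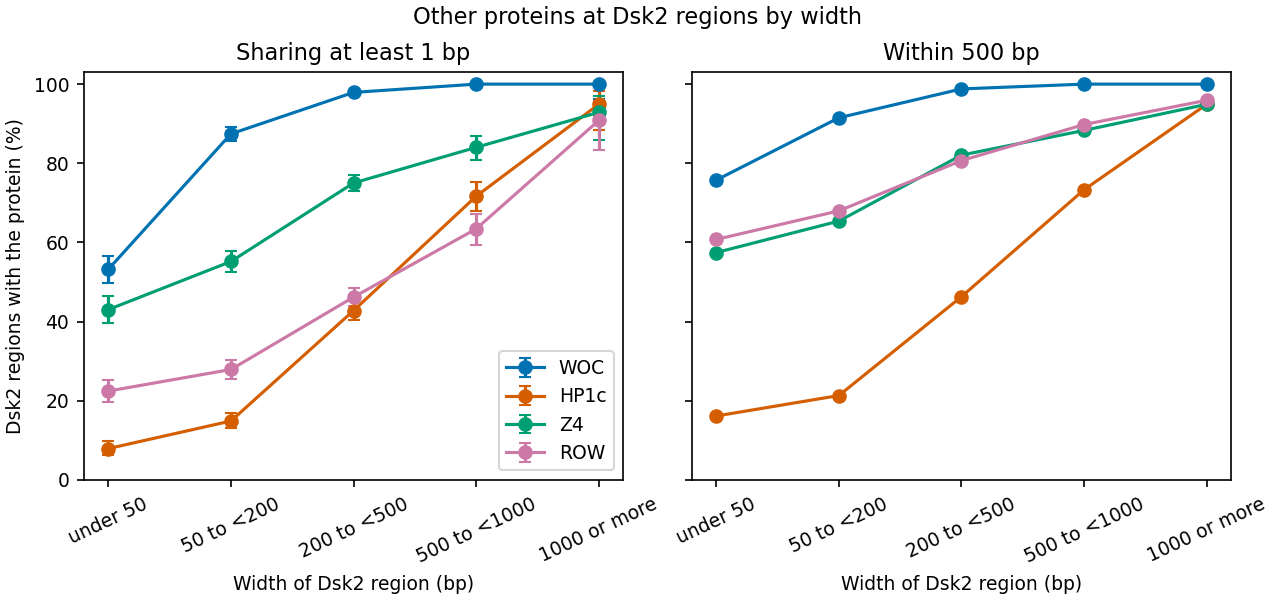
Share of Dsk2 regions in each width class (bp) that carry WOC, HP1c, Z4 or ROW, by at least 1 shared bp with exact 95% intervals (left) and by a region within 500 bp (right). HP1c climbs from 7.89% to 94.9% on the left and from 16.1% to 94.9% on the right.

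A wide region meets another region more easily, so the same shares were taken at points. HP1c covered the midpoint of 6.98% of the Dsk2 regions under 50 bp, 8.80% of those of 50 to under 200 bp, 23.8% of the 200 to under 500 bp class, 32.3% of the 500 to under 1000 bp class and 42.9% of the widest class. The intervals of the first 2 classes overlapped (5.38 to 8.88% and 7.35 to 10.4%), as did those of the last 2 (28.6 to 36.2% and 32.9 to 53.3%). ROW was also higher in each wider class, at 21.97%, 22.9%, 28.4%, 29.8% and 46.9%. Its intervals overlapped between the first 2 classes (19.3 to 24.9% and 20.7 to 25.3%). They also overlapped between the third and the fourth (26.3 to 30.5% and 26.2 to 33.6%). WOC covered 49.4%, 76.2%, 94.2%, 92.9% and 76.5% of the midpoints in these classes, highest in the middle. Z4 was highest in the middle as well, at 65.6%, with 42.1% in the narrowest and 43.9% in the widest class. With every region of every list set to 200 bp around its midpoint, HP1c was found at 9.95% of the narrowest, 49.4% of the 500 to under 1000 bp and 37.8% of the widest class. Under that setting WOC stood at 64.2% in the narrowest and 64.3% in the widest class, and the difference between these classes turned negative for Z4 (37.4% and 28.6%) and ROW (20.6% and 19.4%). The intervals of the 2 classes overlapped for Z4 (34.2 to 40.7% and 19.9 to 38.6%) and for ROW (18.0 to 23.4% and 12.1 to 28.6%). WOC was highest in the 200 to under 500 bp class under that setting, at 94.8%. When a partner within 500 bp was counted, HP1c rose from 16.1% to 94.9% and WOC from 75.7% to 100%, Z4 from 57.4% to 94.9% and ROW from 60.8% to 95.9%.

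The number of other proteins at a Dsk2 region followed its width. Of all Dsk2 regions, 253 (5.33%) had none of the 4, 964 (20.3%) had 1, 1592 (33.5%) had 2, 1226 (25.8%) had 3 and 713 (15.0%, 14.0 to 16.1%) had all 4. Median widths of these groups were 28, 85.5, 194, 292 and 492 bp. All 4 proteins were present at 4 of the 874 narrowest regions (0.458%), 1.70% of the 50 to under 200 bp class, 18.8% of the 200 to under 500 bp class, 43.3% of the 500 to under 1000 bp class and 83.7% of the widest class (82 of 98, 74.8 to 90.4%). No region of 500 bp or more was without another protein.

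Among the 16 possible combinations, WOC with Z4 was the most frequent at Dsk2 regions, with 966 (20.3%). WOC, Z4 and ROW without HP1c followed with 753 (15.9%), then all 4 with 713, WOC alone with 710 (15.0%) and WOC, HP1c and Z4 with 388 (8.17%). HP1c without WOC was rare: 67 Dsk2 regions had HP1c alone, 21 had HP1c with Z4, 8 HP1c with Z4 and ROW, and 3 HP1c with ROW. Of the 710 regions with WOC alone, 28.3% lay on X, against 18.9% of all Dsk2 regions. The share on X was 27.0% for WOC with ROW and 26.8% for WOC with HP1c, and 10.2% for WOC, Z4 and ROW and 14.3% for all 4.

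Whether a Dsk2 region carried HP1c went with its other partners in a way that depended on width. At Dsk2 regions under 50 bp, WOC was at 36.2% (25 of 69, 24.99 to 48.7%) of those with HP1c and 54.7% (51.1 to 58.1%) of those without, and ROW was at 11.6% (5.14 to 21.6%) and 23.4% (20.5 to 26.4%). At 50 to under 200 bp, WOC was at 78.1% (71.7 to 83.6%) of the 201 with HP1c and 89.1% (87.1 to 90.8%) of the 1151 without, and ROW at 16.9% (12.01 to 22.8%) and 29.8% (27.2 to 32.5%). Narrow Dsk2 regions with HP1c carried WOC and ROW less often in both classes. HP1c shares its input with Dsk2, and WOC, ROW and Z4 do not. Here and in the wider classes the input and the protein therefore cannot be told apart. The counting intervals were apart for WOC in both and for ROW from 50 to under 200 bp, and those for ROW under 50 bp overlapped.

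From 200 to under 1000 bp ROW had the opposite order. In the 200 to under 500 bp class, ROW was at 50.1% (46.5 to 53.6%) of the 777 Dsk2 regions with HP1c and 43.3% (40.2 to 46.3%) of the 1040 without, and WOC at 98.6% and 97.4%. Z4 was less frequent with HP1c in this class, at 70.8% (67.4 to 73.96%) against 78.2% (75.5 to 80.6%), and neither pair of intervals overlapped for Z4 or ROW. In the 500 to under 1000 bp class, ROW was at 65.7% (61.1 to 70.2%) with and 57.6% (49.8 to 65.0%) without HP1c, and Z4 at 83.2% and 86.0%, with overlapping intervals for both. Below 200 bp the Z4 intervals with and without HP1c overlapped as well. Over all widths Z4 had the other order, with 71.7% (69.5 to 73.96%) of the 1575 Dsk2 regions with HP1c and 61.6% (59.9 to 63.3%) of the 3173 without, and the regions with HP1c were wider (median 397 against 151 bp). Regions with HP1c were wider within classes too. Their median was 151 bp against 126 bp for the whole 50 to under 200 bp class. In the 200 to under 500 bp class it was 347 against 319 bp. The part of width within a class in these shares was not tested.

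The alignment of the partner regions with Dsk2 also differed. Among 3942 pairs in which 1 Dsk2 and 1 WOC region overlapped only each other, the midpoints lay a median of 28 bp apart, and 90.2% were within 100 bp. The 2 widths were close, with medians of 249 bp for Dsk2 and 274 bp for WOC, and Dsk2 was the wider in 45.1% of pairs. HP1c regions were mostly narrower and lay inside Dsk2 regions: of 1466 such pairs, the HP1c region was enclosed by Dsk2 in 70.1%, with median widths of 137 and 375 bp and midpoints 53.5 bp apart. Z4 had the reverse geometry, since 66.6% of 2767 paired Dsk2 regions lay inside the Z4 region (median widths 274 bp for Dsk2 and 525 bp for Z4, midpoints 57.5 bp apart). ROW midpoints were the farthest, a median of 194 bp from the Dsk2 midpoint over 1454 pairs, with 28.7% within 100 bp.

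In wide Dsk2 regions the midpoints of HP1c, Z4 and ROW regions lay farther in bp from that of Dsk2, and several partner regions often fell in 1 Dsk2 region. The midpoint of the HP1c region lay a median of 44.5 bp from that of Dsk2 in the 200 to under 500 bp class, 136 bp in the 500 to under 1000 bp class and 280.5 bp at 1000 bp or more. For Z4 these distances were 62, 103.25 and 351.5 bp and for ROW 226, 356 and 536.5 bp, while WOC stayed near the centre, at 28.5, 29.5 and 66.5 bp. Against the Dsk2 width from its centre to its edge, the median HP1c distance was 27.0%, 40.1% and 42.9% in these classes in turn. Z4 was at 37.1%, 31.9% and 52.7%, and WOC at 17.9%, 9.64% and 10.3%. On this scale ROW fell with width, from 130% through 107% to 79.2%. Of the 98 widest Dsk2 regions, 46 (46.9%) held 2 or more HP1c regions, 43 (43.9%) 2 or more Z4, 39 (39.8%) 2 or more ROW and 35 (35.7%) 2 or more WOC regions. In the 200 to under 500 bp class this was so for 1 region each with HP1c and WOC, 8 with ROW and none with Z4. Width ranks of Dsk2 and the overlapping region were related for WOC (Spearman rho 0.72 over 4131 Dsk2 regions) and less for HP1c (0.36 over 1575) and Z4 (0.15 over 3086). For ROW rho was -0.11 over 1886. These are descriptions across regions, and both widths depend on the same local sequence and on the depth of 2 libraries.

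Coverage around the Dsk2 midpoints on the arms showed a central peak for WOC, HP1c and Z4 and a central dip for ROW in each class under 1000 bp. In the 200 to under 500 bp class (1784 regions), WOC covered 94.3% of the centres and an average of 3.22% of positions 400 bp to either side, HP1c 23.7% and 1.12%, and Z4 65.1% and 18.0%. ROW covered 28.7% of the centres and 34.0% at 400 bp, with its highest value of 38.1% at 300 bp. The distance at which ROW coverage was highest was 200 bp for the 2 narrower classes, 300 bp and then 450 bp (41.9%, with 29.6% at the centre) for the 500 to under 1000 bp class, outside the typical Dsk2 edge in each case. In the 98 widest regions the profile was different for 3 of the proteins. WOC was at 76.5% of the centres and 86.2% at 400 bp, HP1c at 42.9% and 44.4%, and Z4 at 43.9% and 52.6%. ROW was again lower at the centre, at 46.9% against 52.0% at 400 bp, with its highest value of 58.2% at 650 bp.

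**Figure D3:**
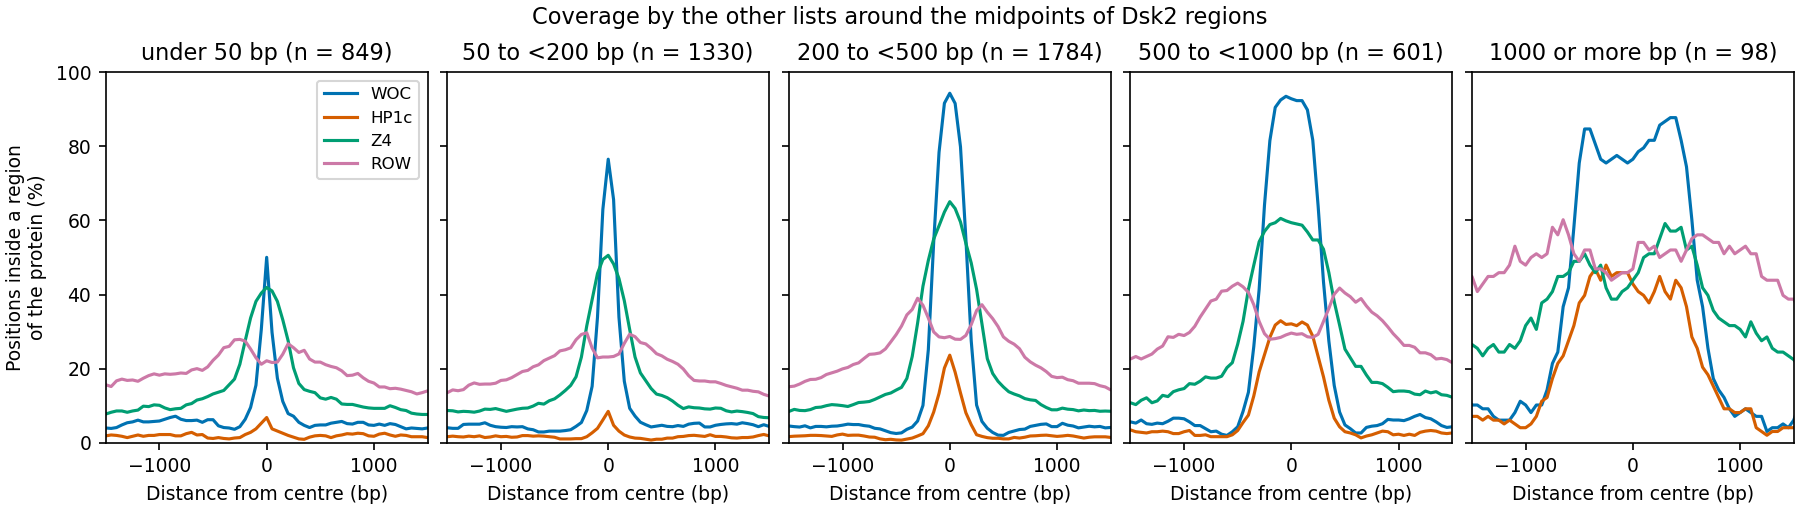
Percentage of positions that lie inside a WOC, HP1c, Z4 or ROW region, by distance in bp from the midpoint of the Dsk2 region, for 5 classes of Dsk2 width on arms 2L, 2R, 3L, 3R, X and 4. ROW dips at the centre in the first 4 panels and is also lower at the centre than 400 bp away in the last. WOC has 2 shoulders in the last panel, where 98 regions were averaged.

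Dsk2 regions without WOC were few and narrow. They numbered 617, with a median width of 33 bp against 249 bp for those with WOC, and 409 of them were under 50 bp. Of the 617, 268 (43.4%) had a WOC region within 500 bp, and 94 (15.2%) lay over 10 kb from the nearest WOC region. Dsk2 regions without HP1c lay farther from that protein: of 3173, 233 (7.34%) had HP1c within 500 bp and 1414 (44.6%) lay over 10 kb from the nearest HP1c region. The HP1c list is also sparser, with a median gap of 14287.5 bases against 5942 for WOC and 2123 for ROW. The part of list density in these distances was not tested. Of the 2862 Dsk2 regions without ROW, 1669 (58.3%) had a ROW region within 500 bp, and of the 1662 without Z4 it was 420 (25.3%). Of the 253 with no other protein, 164 (64.8%) had a region of some other list within 500 bp and 107 (42.3%) had another Dsk2 region within 2 kb.

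The 10 widest Dsk2 regions spanned 1935 to 4229 bp, and 8 of them carried all 4 other proteins. They lay on 2L (4 regions), 3R (3), 2R (2) and 3L (1). The widest (3R, 19157572 to 19161800) held 4 WOC, 3 HP1c, 2 Z4 and 2 ROW regions, and 66.8% of its bases were covered by HP1c, 62.9% by WOC, 91.0% by Z4 and 91.7% by ROW. The second (2R, 7089501 to 7093104, 3604 bp) was 63.2% covered by HP1c and 78.0% by WOC. The third (2L, 14021122 to 14024340, 3219 bp) had 69.2% of its bases in WOC but only 4.72% in 3 HP1c regions. The 2 that lacked a protein were the fifth (2L, 12010258 to 12012593, 2336 bp), 3848 bp from the nearest ROW region, and the eighth (2R, 6981529 to 6983683, 2155 bp), 30920 bp from the nearest HP1c region. The eighth lay wholly inside a ROW region of 18231 bp. HP1c coverage of the 10 ranged from 0 to 88.7%, the highest being that of the tenth (3R, 25597032 to 25598966), and WOC coverage from 31.25 to 81.7%. The next in width, at 1933 and 1900 bp, both lay on 2R and carried all 4 proteins.

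Wide Dsk2 regions that lacked a protein were found for HP1c, Z4 and ROW but not for WOC. The widest without HP1c after the 2R region were 1102 bp (3R, 8807599 to 8808700) and 1085 bp (3L, 11549010 to 11550094), 29573 and 2291 bp from the nearest HP1c region. The 3 widest without Z4 were 1199 bp (2R, 2107364 to 2108562), 1189 bp (2L, 9448716 to 9449904) and 1181 bp (X, 3637476 to 3638656), all with WOC and HP1c and without ROW. In the first 2 of these a ROW region began within 59 bp and a Z4 region within 134 bp, whereas on X they were 3082 and 16649 bp away. Without ROW the second widest was 1210 bp (2L, 1649119 to 1650328), with WOC, HP1c and Z4 and 1426 bp from the nearest ROW region. Without WOC the widest reached 494 bp (3R, 25632451 to 25632944) and 486 bp (3R, 23070987 to 23071472), both with Z4 and ROW, followed by 423 bp on the unplaced sequence Uextra.

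Spacing along the arms was uneven. Neighbouring Dsk2 regions were a median of 7344.5 bases apart and a mean of 25427 bases, and the mean was 3.46 times the median. Of 4656 gaps, 5.67% were at most 500 bases, 23.8% at most 2 kb, and 6.62% exceeded 100 kb. The most frequent gap in steps of 100 bases was 300 to 399 bases, with 157 gaps, against 106 in the next step, and no gap was under 300 bases. The smallest gap was 300 or 301 bases in each of the 5 lists, so the most frequent Dsk2 step was the first that occurs. Whether closer stretches were joined in calling, which would bear on widths and clusters, is not stated. The median gap was 5942 bases for WOC, 14287.5 for HP1c, 3546 for Z4 and 2123 for ROW, and the mean over the median was 3.47, 3.09, 4.46 and 6.10, beside lists of different lengths. Width and spacing hardly moved together. Spearman rho was 0.01 between the width of a region and the gap to its nearest neighbour (4662 regions) and 0.03 between the widths of neighbours (4656 pairs), as descriptions.

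**Figure D4:**
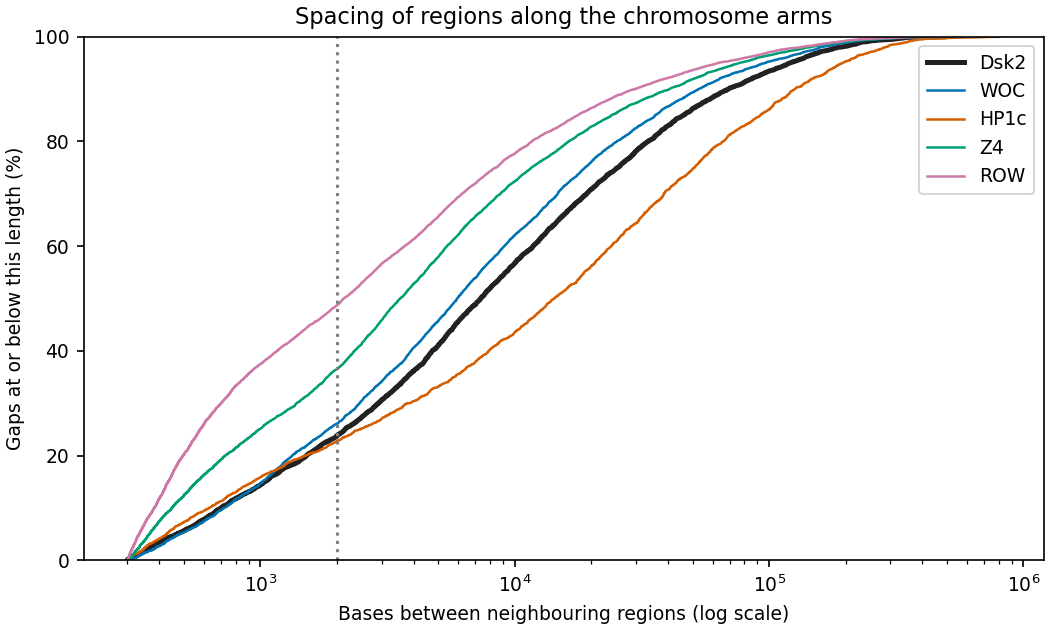
Cumulative share of gaps between neighbouring regions by gap length in bases on a log scale, for the 5 lists on arms 2L, 2R, 3L, 3R, X and 4. The dotted line marks 2 kb, below which 23.8% of the Dsk2 gaps fall, and the Dsk2 curve runs between those of WOC and HP1c above it.

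Joining neighbours no more than 2 kb apart put 1895 of the 4662 Dsk2 regions on the arms (40.6%) into 788 clusters of 2 or more. There were 567 pairs, 163 clusters of 3, 43 of 4, and 15 of 5 or more, the largest with 13. The share in clusters was 44.0% for WOC, 39.2% for HP1c, 57.4% for Z4 and 73.5% for ROW. These lists held 5761, 2676, 7379 and 8917 regions on the arms, and regions of a longer list lie closer together. The part of list length in these shares was not tested. For Dsk2 the share was 25.8% with neighbours joined at 1 kb and 63.1% at 5 kb. In 435 of the 567 pairs both members carried WOC. Of the 15 largest clusters, 6 lay on X and held 47 of the 100 regions, while X had 18.3% of the 2767 single regions.

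Partners differed between single and clustered Dsk2 regions. From singles through pairs and clusters of 3 or 4 to clusters of 5 or more, ROW went from 35.6% (33.8 to 37.5%) through 42.8% and 49.5% to 60.0% (49.7 to 69.7%), and HP1c from 31.7% (30.0 to 33.5%) through 33.9% and 36.0% to 43.0% (33.1 to 53.3%). Z4 went the other way, from 68.1% (66.4 to 69.9%) through 63.8% and 54.6% to 50 of 100 regions (39.8 to 60.2%), and WOC from 88.7% (87.4 to 89.8%) through 87.9% and 82.8% to 74.0% (64.3 to 82.3%). The median widths of these 4 groups were 225, 206, 204 and 242.5 bp. X held 18.3%, 16.9%, 22.8% and 47.0% of the regions of these groups, and its part in the differences was not tested. The 100 regions in clusters of 5 or more lay in 15 clusters, and members of a cluster can share 1 partner region. In the largest cluster 2 ROW regions overlapped 12 Dsk2 regions. The intervals count such members as independent, so they do not measure the spread between clusters.

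The largest cluster lay on X from 17186051 to 17196045, with 13 Dsk2 regions of 51 to 796 bp in 9995 bp. ROW, in 2 regions, overlapped 12 of the 13, WOC 10, Z4 7 and HP1c 2. The second lay on 3R from 25581034 to 25593472 and held 11 Dsk2 regions of 12 to 2191 bp, of which 8 had WOC, 8 ROW, 4 HP1c and 2 Z4. The third, on X from 7590802 to 7603440, held 10 regions of 207 to 1487 bp. It differed in its partners, since 8 of the 10 carried all 4 proteins and the other two had ROW alone and ROW with Z4. The fourth (X, 2187494 to 2198393) had 8 regions, 6 with HP1c, and the fifth (2R, 10102393 to 10107352) had 6 regions of 22 to 258 bp and no HP1c.

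Density was similar on the 5 large arms. It was 42.0 Dsk2 regions per Mb on 2R, 40.1 on X, 40.0 on 3R, 36.6 on 2L and 35.6 on 3L, so that 2R was 1.18 times as dense as 3L (exact 95% interval 1.07 to 1.30, for the extremes of the 5 arms). By covered sequence X fell behind, with 10.0 kb per Mb against 12.6 on 2R, 11.6 on 3R, 10.6 on 2L and 9.72 on 3L. Dsk2 regions on X were narrower, with a median of 183 bp against 212 to 233 bp on the other large arms, and 22.6% of them were under 50 bp against 16.1 to 18.7%. Chromosome 4 had 52 regions, or 42.9 per Mb, and of these 3 were 500 bp or wider (5.77%), against 13.1 to 17.5% on the large arms.

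Dsk2 regions on X had less Z4 and ROW than those of the same width class on 2L, 2R, 3L and 3R, in each class under 1000 bp, though not always beyond the counting intervals. The intervals for WOC and HP1c overlapped in every class. In the 200 to under 500 bp class, Z4 was at 60.3% of 305 regions on X (54.6 to 65.9%) and at 77.3% of 1453 on the large autosomal arms (75.05 to 79.4%), and ROW at 36.1% (30.7 to 41.7%) and 48.7% (46.1 to 51.3%). WOC was at 299 of the 305 and 1424 of the 1453 and HP1c at 46.2% (40.5 to 52.0%) and 42.2% (39.6 to 44.8%). In the 500 to under 1000 bp class Z4 was at 70.2% (60.4 to 78.8%) on X and 86.7% (83.4 to 89.5%) elsewhere, ROW at 48.1% (38.2 to 58.1%) and 66.3% (61.9 to 70.4%), and HP1c at 69.2% and 72.5% with overlapping intervals. Under 50 bp the Z4 intervals overlapped, at 36.0% (29.4 to 42.98%) on X and 44.7% (40.8 to 48.6%) elsewhere, and ROW was at 15.8% (11.04 to 21.5%) and 160 of 640 (21.7 to 28.5%). From 50 to under 200 bp Z4 was at 43.7% (37.7 to 49.8%) on X and 57.3% (54.3 to 60.4%) elsewhere, and the ROW intervals overlapped there (24.1% and 29.3%). Of the 15 widest regions on X, 14 had Z4 and 13 had ROW. The Z4 list covered 1.90% of X and 2.67% of all 6 arms, and the ROW list 2.54% and 3.64%, so both had less on X as a whole. On chromosome 4, Z4 was at 46 of the 52 Dsk2 regions (88.5%, 76.6 to 95.6%), WOC at 48, ROW at 11 (21.2%, 11.1 to 34.7%) and HP1c at 7 (13.5%, 5.59 to 25.8%).

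Density also varied within each large arm, over parts smaller than the whole arms compared above. Each large arm was divided into 10 equal parts counted from the telomere. The lowest and highest parts had 12.7 and 54.7 Dsk2 regions per Mb on 3L, 18.3 and 48.4 on 2L, 26.0 and 57.8 on 2R, 23.7 and 51.8 on X, and 32.3 and 48.8 on 3R. The part next to the centromere was the sparsest on 3L and X. Over the 5 arms it held 336 regions (28.3 per Mb), against 532 (44.8 per Mb) in the part at the telomere and 400 to 519 in the 8 between. The same part was the sparsest in the WOC (34.8 per Mb), HP1c (13.8), Z4 (41.4) and ROW (53.8) lists.

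**Figure D5:**
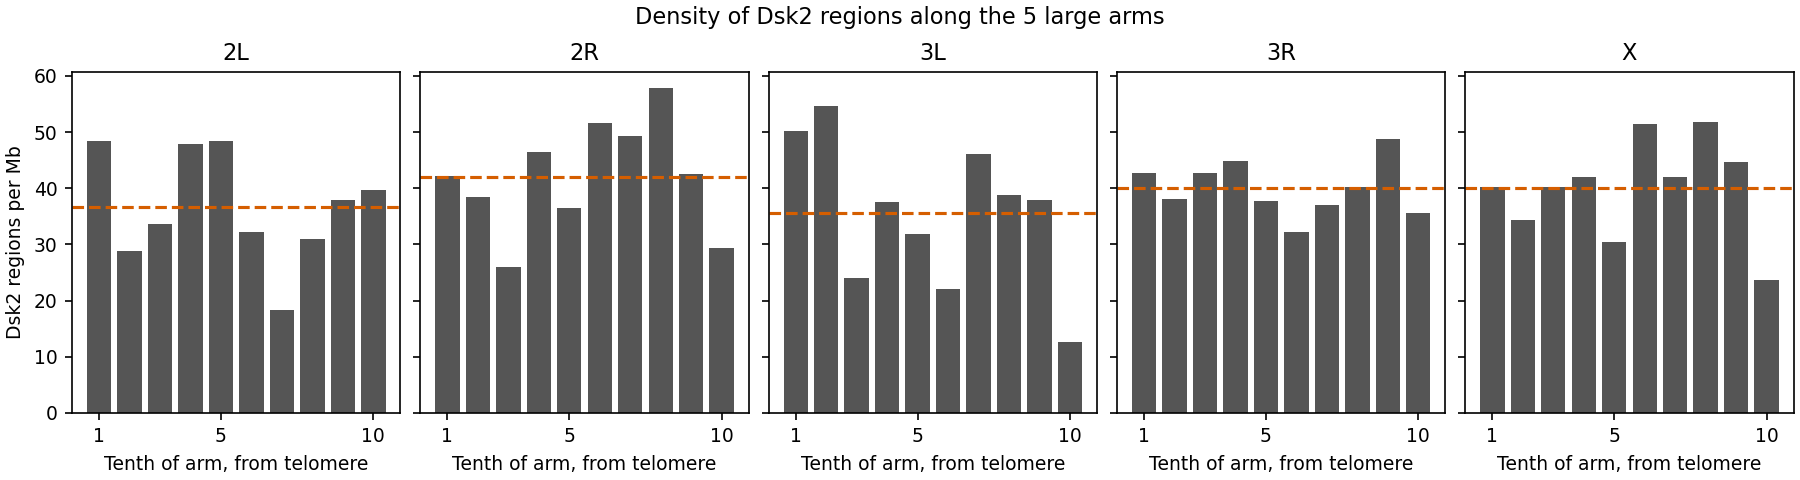
Dsk2 regions per Mb in 10 equal parts of each large arm, numbered from the telomere to the centromere, with the mean of the arm as a dashed line. The lowest bar is the last part of 3L, at 12.7 per Mb, and the highest is the eighth part of 2R, at 57.8 per Mb.

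In 1205 windows of 100 kb, 231 (19.2%) held no Dsk2 region and 97 held 10 or more. The mean was 3.87 per window and the variance 3.34 times the mean. The 121 fullest windows, 10% of all, held 30.3% of the regions, close to the 29.2% of WOC, 29.4% of Z4 and 29.7% of ROW regions in their own fullest windows, and 35.6% for HP1c. Windows on 2L were empty most often (24.8%), and none of the 13 on chromosome 4 was. Across windows, the number of Dsk2 regions went with that of WOC (Spearman rho 0.94), Z4 (0.85), ROW (0.85) and HP1c (0.75). All 5 lists share the mappable sequence and gene content of a window, so these are descriptions. Each window with 5 or more Dsk2 regions also had WOC, Z4 and ROW regions, and 18 such windows had no HP1c region.

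The densest windows held 17 to 19 Dsk2 regions and ranked differently by the other lists. Among all windows these 5 stood between place 1 and place 18 by WOC, 5 and 67 by ROW, and 1 and 114 by Z4. By HP1c the third window stood at place 3 and the fourth lower than place 114. The first was 2L from 400001 to 500000, with 19 Dsk2 regions beside 23 WOC, 23 Z4, 29 ROW and 7 HP1c regions. The second, 3R from 25500001 to 25600000, had 19 Dsk2 regions that covered 9729 bp, against 4948 bp in the first. It held the second largest cluster and the sixth and the tenth of the widest regions. The third, 3R from 5900001 to 6000000, had 18 Dsk2 and 13 HP1c regions and tied for the third place among all windows by HP1c. The fourth, 2L from 10200001 to 10300000, had 17 Dsk2 but 4 HP1c regions, although it ranked first by Z4 with 27, and the fifth was X from 13200001 to 13300000 with 17 Dsk2 and 10 HP1c. With windows shifted by 50 kb, 3R from 25550001 to 25650000 held 27 Dsk2 regions. Dense windows had more ROW at their Dsk2 regions: 28.0% (23.8 to 32.5%) in windows with 1 or 2 Dsk2 regions, 35.0% with 3 to 5, 39.5% with 6 to 9 and 50.1% (47.3 to 53.0%) with 10 or more. HP1c (30.7 to 35.9%), Z4 (60.8 to 65.9%) and WOC (85.8 to 89.99%) varied less over these 4 groups, and the median width was 208 to 222 bp. WOC was highest with 3 to 5 Dsk2 regions (interval 88.3 to 91.5%). That interval lay apart from those with 6 to 9 (84.9 to 88.2%) and with 10 or more (83.8 to 87.8%).

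Long stretches held no Dsk2 region. On the large arms 309 stretches of over 100 kb without Dsk2 made up 45.1% of the length. The longest was 490 kb on 2L (16889160 to 17378962), followed by 466 kb on 2L (17497406 to 17963270) and 434 kb on X (11923211 to 12357086). They were nearly empty of the other proteins as well, with 2 WOC, 6 Z4, 5 ROW and no HP1c regions in the first, 2 WOC, 2 Z4 and 1 ROW in the second, and 1 HP1c, 2 Z4 and 1 ROW in the third.

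Outside the arms the Dsk2 list had 86 regions. The 44 on assembled pericentric heterochromatin (2LHet, 2RHet, 3LHet, 3RHet and XHet) had Z4 at 39 (88.6%, 75.4 to 96.2%), WOC at 38 (86.4%), ROW at 22 and HP1c at 9 (20.5%, 9.80 to 35.3%). The 29 on Uextra, a collection of unplaced sequence, differed in order, with HP1c and WOC at 17 each (58.6%, 38.9 to 76.5%), Z4 at 18 and ROW at 4. Another 9 lay on the unplaced sequence U. The mitochondrial genome carried 4 Dsk2 regions of 28 to 311 bp, 3 of them with HP1c and 3 with Z4, and the WOC and ROW lists had none there. Mitochondrial DNA is not packed in chromatin, and whether these calls come from the immunoprecipitation was not tested. The order of the 4 shares was the same on the arms alone, at 87.3% for WOC, 64.8% for Z4, 39.9% for ROW and 33.1% for HP1c.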

How the data were processed

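Per the labels' protocols, chromatin was sonicated, immunoprecipitated with polyclonal antibodies, and made into libraries with 18 cycles of PCR from 10 ng DNA. The submitters' processing notes name the dm3 build and the tools Bowtie 0.12.5, CASAVA 1.8 and FastQC 0.9.3. The series' design text says that enrichment was called over input. Which peak caller was run, at what threshold and how duplicate reads were handled is not stated in the sources used here. The deposited files hold start and end positions of regions and no score, height or read number, so depth is unknown.

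Width was end minus start plus 1, since some regions start and end at 1 position. Whether positions count from 0 or 1 is not stated. Overlap was at least 1 shared bp, distances ran from edge to edge, gaps were the bases between neighbours, and arm lengths were taken from the outermost positions of any list. Named were the 10 widest regions, the 5 largest clusters, the 5 fullest 100 kb windows, the 3 widest regions without each protein and the 3 longest empty stretches. The list, classes and rules were chosen with earlier results of these data known. The interval functions were checked on simulated intervals and against bedtools 2.31.1. Python 3.11.15, NumPy 2.4.6, pandas 2.3.3, SciPy 1.17.1 and matplotlib 3.10.9 were used.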

Additional observations from a re-analysis of the deposited data

How the results depend on the processing

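No paired analysis was possible because each protein has 1 library, and for the same reason no replicate could be left out. Of 49 alternatives over 14 results, 14 moved the value little (within its counting interval, or by less than 1.5 times for a count), 33 moved it by more and 2 turned its direction.

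How overlap is defined moved the shares most. Where the midpoint of the Dsk2 region had to lie in the other region, WOC was found at 80.3% of Dsk2 regions, Z4 at 55.9%, ROW at 26.2% and HP1c at 17.9%. With at least 1/2 of the Dsk2 region covered these were 79.3%, 53.8%, 25.4% and 12.2%, with all regions set to 200 bp 85.4%, 52.3%, 21.3% and 29.6%, and with a partner within 500 bp 92.6%, 73.8%, 74.9% and 38.1%. With regions under 50 bp left out of all lists, WOC moved to 92.5% and HP1c to 28.2%. HP1c ranked last under 1 bp overlap, but above ROW with all regions at 200 bp.

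The widest class exceeded the narrowest by 46.8 points for WOC, 87.0 for HP1c, 49.8 for Z4 and 68.4 for ROW under 1 bp overlap. By midpoint these differences were 27.1, 35.9, 1.77 and 24.97 points, and within 500 bp 24.3, 78.8, 37.5 and 35.2. With all regions at 200 bp, WOC stood at 0.0981 and HP1c at 27.8. Under that setting Z4 (-8.84) and ROW (-1.21) changed direction, though the intervals of the 2 classes overlapped for both. That setting narrows wide regions to their centres by construction, and the cause of the other moves was not tested.

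The median width was 269 bp with regions under 50 bp left out. The share in clusters was 25.8% with neighbours joined at 1 kb, 63.1% at 5 kb and 34.0% without regions under 50 bp, and the fullest window of 200 kb held 33 Dsk2 regions. Shares on the arms alone, an alternative chosen after seeing the data, moved by less than their intervals. Without read numbers, whether a protein missing at a narrow region is absent or under the calling threshold cannot be told apart.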
